A study of Mus musculus with 12 samples.

Results

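Peritoneal macrophages of *N4bp1*-/- and *N4bp1*+/+ mice were compared in the absence of any stimulus. The comparison covers all 124 genes of the deposited table, which the authors list as NF-κB-dependent, and so says nothing of other transcripts. Of the 124 genes, 123 have a mean above 0 in both genotypes and so a ratio. *Il23a*, listed at 0 in *N4bp1*-/- cells, enters counts and medians only with a pseudocount. No other row was left out of counts or medians over all genes. The 4 unstimulated libraries, 2 from *N4bp1*+/+ and 2 from *N4bp1*-/- mice, are part of a series of 12 libraries in 6 groups. The other 4 groups are the same genotypes after 2 h with R848 at 20 ng/ml, a ligand of TLR7, or with LPS at 10 ng/ml, a ligand of TLR4. All mice were young adults on a C57BL/6J background, and the study used males and females. The knockout was germline and came from CRISPR-Cas9 targeting that left a short deletion in the second exon, so every cell type of the animal carried it. The macrophages of all groups were elicited with thioglycollate, an irritant that draws monocytes into the peritoneal cavity, and were then cultured, so "unstimulated" means no added ligand and not cells at rest in the tissue. The *N4bp1* transcript itself was not analysed here.

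NF-κB is a family of transcription factors held in the cytoplasm by IκB proteins. Ligation of Toll-like or TNF receptors activates the IκB kinase complex, which contains the regulatory subunit NEMO; IκB is then degraded and NF-κB enters the nucleus. Many of its targets encode its own inhibitors, so that the pathway limits itself. N4BP1 is an inhibitor of this pathway that the study places at NEMO. The unstimulated cells give the levels of the listed genes in mice with and without it, before any ligand.

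Each value is the authors' mean FPKM (sequenced fragments per length of transcript and per size of the library) over the 2 mice of a genotype. No value per mouse, count or depth accompanies it, so no difference below could be set against the spread between mice and none was tested. "Higher" and "lower" compare 2 means, and "2-fold" refers to their ratio without a pseudocount unless one is named. As log2 ratios depend on the pseudocount for rare transcripts, genes at 1 FPKM or more in *N4bp1*+/+ cells are given apart from those below.

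Without stimulus, 43 of 123 genes (35.0%) had a mean at least 2-fold higher in *N4bp1*-/- macrophages than in *N4bp1*+/+ cells, and 0 genes (0%) were 2-fold lower. The median log2 ratio was 0.53, with 94 genes above 0 and 29 below. Beyond 1.5-fold, 58 genes were higher and 4 were lower. Adding 1 FPKM to both means left 16 of 124 genes (12.9%) at 2-fold or more and a median of 0.23. The lean toward the knockout was therefore present on both scales, and its size depended on how rare transcripts were treated. The 41 most abundant genes had a median log2 ratio of 0.13, and relative to that shift 83 genes were above, 39 below and 41 at 2-fold or more.

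**Figure D1:**
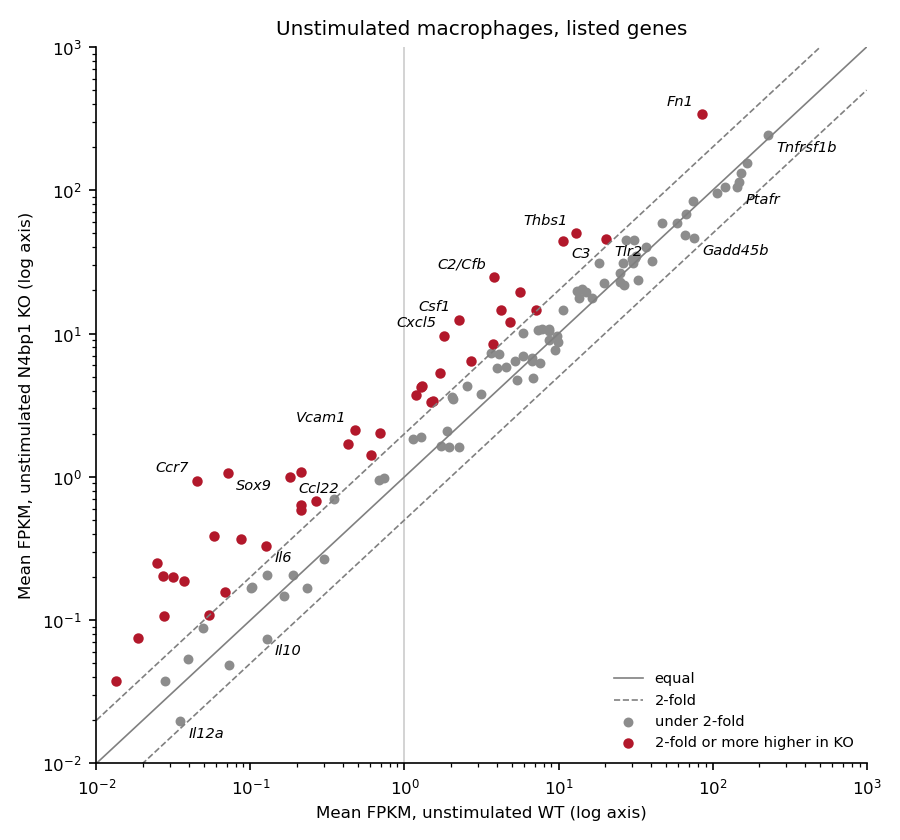
Mean FPKM of each reported gene with a mean above 0 in unstimulated *N4bp1*+/+ (WT, horizontal, log axis) and *N4bp1*-/- (KO, vertical, log axis) macrophages; each point is 1 gene and 1 mean of 2 mice per axis, dashed lines mark 2-fold and the grey line 1 FPKM. Red marks genes at least 2-fold higher in KO, from *Csf3* at 0.0135 FPKM in WT to *Fn1* at 84.8 FPKM, and all others are grey. None of the points lies past the lower dashed line, and the 7 genes at 100 FPKM or more in WT lie near the diagonal.

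Of the 84 genes at 1 FPKM or more in *N4bp1*+/+ cells, 20 (23.8%) were at least 2-fold higher in *N4bp1*-/- cells, and the median log2 ratio was 0.30. A pseudocount of 1 FPKM moved that median only to 0.27. In this group 61 genes were above 0, 23 were below, and 27 lay within 1.2-fold of equality. Of the genes below 1 FPKM, 23 of the 39 with a ratio (59.0%) were at least 2-fold higher, with a median log2 ratio of 1.36, but the median was 0.20 with a pseudocount of 1 FPKM and 1 gene, *Vcam1*, then stayed past 2-fold.

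The ratio was smaller the more abundant the gene was in *N4bp1*+/+ cells. Between 1 and 10 FPKM in *N4bp1*+/+ cells, 16 of 46 genes were 2-fold higher and the median log2 ratio was 0.64. Between 10 and 100 FPKM the count was 4 of 31 and the median 0.18. Of the 7 genes at 100 FPKM or more, 0 were 2-fold higher, 6 had a lower mean in *N4bp1*-/- cells and the median was -0.19. The level that sorts the genes is also the denominator of the ratio, which by itself places high ratios among low genes.

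**Figure D2:**
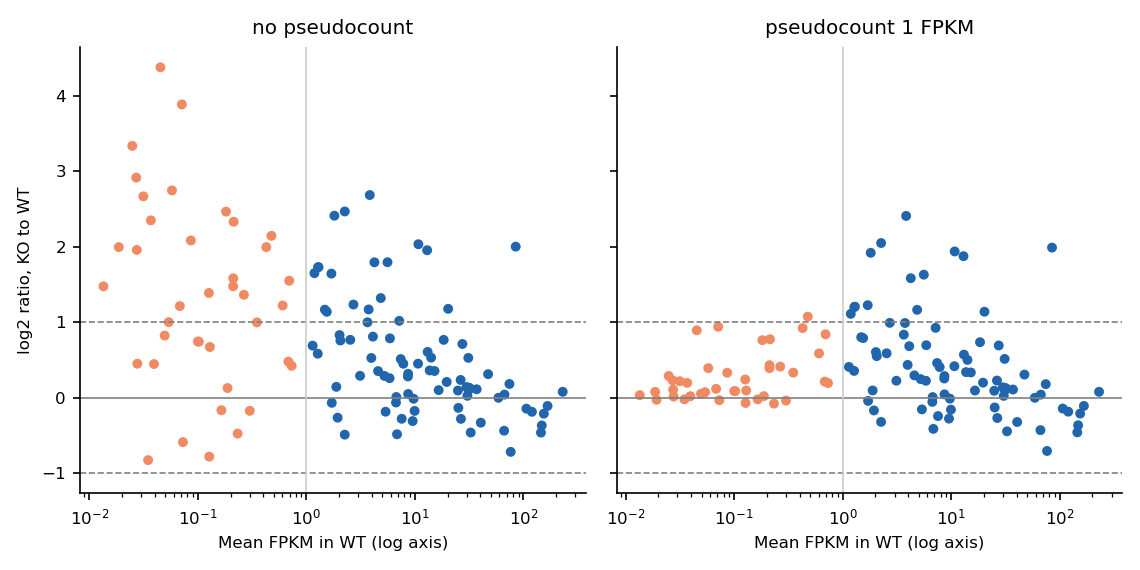
Log2 ratio of mean FPKM, KO to WT, against the mean FPKM in unstimulated WT cells (log axis), without a pseudocount (left) and with 1 FPKM added to both means (right); each point is 1 gene, orange below and blue at or above 1 FPKM in WT, and dashed lines mark 2-fold. The orange points, with a median of 1.36 on the left, gather near 0 on the right with a median of 0.20, and the blue points keep a median of 0.30 and 0.27.

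The NF-κB subunits and their IκB inhibitors were all at 1 FPKM or more, and 0 of 8 reached 2-fold, against 23.8% of all genes at that level. Their median log2 ratio was 0.49, beside 0.30 over all genes at that level. A higher mean in *N4bp1*-/- cells was found for 7 of 8, beside 61 of all 84 genes at that level. The 3 highest ratios were those of inhibitors or IκB-like regulators. *Nfkbie* (IκBε) had a mean of 3.65 FPKM in *N4bp1*+/+ against 7.31 FPKM in *N4bp1*-/- cells, a ratio of 1.999 that lies just under the threshold. *Nfkbiz*, which encodes the nuclear co-activator IκBζ, had means of 2.06 and 3.48 FPKM. *Nfkbia*, which encodes IκBα and is the classical feedback target of the pathway, had means of 27.4 and 44.8 FPKM, a 1.64-fold difference. *Nfkb2* (p100/p52) stood at 14.1 and 20.4 FPKM, *Relb* at 10.7 and 14.6 FPKM and *Bcl3*, a nuclear IκB protein, at 7.82 and 10.7 FPKM. *Nfkb1* (p105/p50) was nearly equal at 29.9 and 33.0 FPKM, and *Rel* (c-Rel) was the only member with a lower mean, at 9.93 and 8.79 FPKM. The ratios of the IκB group and of the subunits overlapped. *Nfkb2* and *Relb* had log2 ratios of 0.531 and 0.451, above the 0.450 of *Bcl3*, and *Nfkb1* and *Rel* had the lowest.

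The adapters and ubiquitin editors of the pathway showed less. All 6 had a higher mean in *N4bp1*-/- cells, beside 61 of all 84 genes at 1 FPKM or more. Relative to the shift of abundant genes it was 4 of the 6. At 2-fold or more were 0, against 23.8% of all genes at that level, and the median log2 ratio was 0.27. *Traf1*, an adapter of TNF receptor family members and a known NF-κB target, had means of 4.10 and 7.19 FPKM. *Tnfaip3*, which encodes the deubiquitinase A20, was within 1.2-fold at 16.5 and 17.7 FPKM. Its binding partner *Tnip1* had 30.4 and 31.0 FPKM, and *Ripk2*, the kinase downstream of NOD2, 5.24 and 6.40 FPKM.

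Matrix, adhesion and coagulation genes held the largest difference in FPKM, that of *Fn1*. Of 12 members 7 were 2-fold higher, against 35.0% of all genes, and the median log2 ratio was 1.73. Among the 10 at 1 FPKM or more 5 were, against 23.8% of all genes at that level, with a median of 1.17. *Fn1*, which encodes the matrix glycoprotein fibronectin (locus chr1:71585520-71662843, mm10), had a mean of 84.8 FPKM in *N4bp1*+/+ against 339.8 FPKM in *N4bp1*-/- cells, a 4.01-fold difference. *Thbs1*, which encodes the matrix protein thrombospondin-1, had means of 13.0 and 50.2 FPKM (3.88-fold). *Cav1*, which encodes the caveolar coat protein caveolin-1, had means of 5.59 and 19.4 FPKM (3.47-fold). *Mmp9*, a gelatinase, was at 1.29 and 4.30 FPKM, and *F11r*, a junctional adhesion molecule, at 1.28 and 4.24 FPKM. Other members of the list did not differ in this way. *Cd44*, the hyaluronan receptor, had means of 106 and 96.2 FPKM, *Plau*, which encodes urokinase, 31.8 and 34.8 FPKM, and *F3*, which encodes tissue factor, 1.94 and 1.61 FPKM.

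Complement genes had the highest ratio among the reported genes at 1 FPKM or more. The joined locus of *C2*, *Cfb* and *Gm20547* (chr17:34856374-34898265) carries 1 value for the neighbouring genes of complement C2 and factor B, so they cannot be told apart. Its mean was 3.84 FPKM in *N4bp1*+/+ against 24.7 FPKM in *N4bp1*-/- cells, a 6.44-fold difference. *C3*, which encodes the central complement component, had means of 10.8 and 44.1 FPKM (4.10-fold). The acute phase genes of the same list were mixed. *Lcn2*, which encodes the siderophore-binding protein lipocalin-2, had a mean of 2.26 and 1.61 FPKM, 1.40-fold lower in the knockout. The 3 orosomucoid genes were all rare and near-identical in sequence, so the assignment of reads between them is uncertain; *Orm1* was at 0.266 and 0.683 FPKM, *Orm2* at 0.233 and 0.167 FPKM and *Orm3* at 0.0729 and 0.0485 FPKM. In all, 4 of 8 members were 2-fold higher, or 3 relative to the shift of abundant genes, against 35.0% of all genes, and the median log2 ratio of 0.91 became 0.06 with a pseudocount of 1 FPKM.

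Among 10 chemokines 6 were 2-fold higher, against 35.0% of all genes, but the most abundant ones were not among them. At 1 FPKM or more it was 3 of 7, against 23.8%. With a pseudocount of 1 FPKM 2 of the 10 stayed past 2-fold and the median log2 ratio went from 1.22 to 0.37. *Cxcl5*, a ligand of CXCR2 that attracts neutrophils, had means of 1.81 and 9.65 FPKM (5.33-fold). *Ccl2*, which recruits monocytes through CCR2, was at 4.24 and 14.7 FPKM (3.47-fold). *Ccl5*, which attracts T cells and monocytes, was at 2.71 and 6.39 FPKM (2.35-fold). The most abundant chemokine, *Ccl9*, had 58.8 FPKM in *N4bp1*+/+ against 58.7 FPKM in *N4bp1*-/- cells. *Ccl3* and *Ccl4*, which encode the neighbouring inflammatory proteins MIP-1α and MIP-1β, had lower means in *N4bp1*-/- cells, at 26.6 and 21.9 FPKM and at 9.53 and 7.69 FPKM. The interferon-inducible *Cxcl10* was at 1.27 and 1.91 FPKM.

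Growth factors were led by *Csf1*, which encodes M-CSF, the growth factor on which macrophages depend. Its mean was 2.26 FPKM in *N4bp1*+/+ against 12.5 FPKM in *N4bp1*-/- cells, a 5.54-fold difference. *Pdgfb*, the platelet-derived growth factor B chain, was at 7.17 and 14.5 FPKM and stood just past the threshold at 2.03-fold. *Inhba*, which encodes a subunit of activin, was at 1.14 and 1.84 FPKM. All 7 members had a higher mean in *N4bp1*-/- cells, beside 94 of all 123 genes with a ratio. Relative to the shift of abundant genes it was 6 of the 7. At 2-fold or more were 3 of the 7, or 2 relative to that shift, a share near the 35.0% of all genes. The median log2 ratio was 1.00, or 0.33 with a pseudocount of 1 FPKM.

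Of 13 receptors 8 were 2-fold higher, against 35.0% of all genes, including 4 of the 7 at 1 FPKM or more, against 23.8%. With a pseudocount of 1 FPKM only *Tlr2* of the 13 stayed past 2-fold, and the median log2 ratio went from 1.17 to 0.23. *Tlr2*, which senses bacterial lipopeptides, was the most abundant of them, at 20.2 FPKM in *N4bp1*+/+ against 45.8 FPKM in *N4bp1*-/- cells (2.26-fold). *Olr1*, a scavenger receptor for oxidized LDL, was at 3.75 and 8.43 FPKM, *Adora2a*, an adenosine receptor, at 1.48 and 3.32 FPKM and *Cd40*, a co-stimulatory TNF receptor family member, at 1.54 and 3.39 FPKM. The receptors with the highest levels did not follow. *Tnfrsf1b*, which encodes TNF receptor 2 and was the most abundant gene of the table in *N4bp1*+/+ cells, had means of 229.9 and 242.6 FPKM. *Ptafr*, the receptor of platelet-activating factor, had 145 and 105 FPKM, 1.38-fold lower in *N4bp1*-/- cells. *Fas*, a death receptor, was at 3.96 and 5.71 FPKM.

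All 9 enzymes and transporters of lipid, nucleotide and redox metabolism had a higher mean in *N4bp1*-/- cells, beside 94 of all 123 genes with a ratio. Of the 9, 5 were 2-fold higher, against 35.0% of all genes. With a pseudocount of 1 FPKM 2 were, and the median log2 ratio went from 1.48 to 0.74. Both inducible enzymes of prostaglandin E2 synthesis were among the 5. *Ptges*, the terminal synthase, had means of 1.19 and 3.73 FPKM (3.14-fold), and *Ptgs2* (cyclooxygenase-2) had 0.694 and 2.03 FPKM (2.93-fold). *Cd38*, an ectoenzyme that consumes NAD, was at 1.70 and 5.31 FPKM. *Sod2*, the mitochondrial superoxide dismutase and a known NF-κB target, had 18.4 and 31.3 FPKM, a 1.70-fold difference. *Abca1*, a cholesterol exporter, was within 1.2-fold at 26.4 and 31.0 FPKM. The serpin list had 4 of 5 members at 2-fold or more, against 35.0% of all genes, but 1 with a pseudocount of 1 FPKM, which took the median log2 ratio from 2.08 to 0.33. *Serpina3g*, *Serpina3n* and *Serpina3f* among the 4 were below 1 FPKM in *N4bp1*+/+ cells and belong to a family of near-identical genes. *Serpina3g*, an intracellular inhibitor of cathepsins, was at 0.214 and 1.08 FPKM.

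As a list, inflammatory cytokines showed no lean toward the knockout. Of 12 with a ratio 1 was 2-fold higher, against 35.0% of all genes. The median log2 ratio was -0.12, or -0.02 with a pseudocount of 1 FPKM. A lower mean in *N4bp1*-/- cells was found for 7 of the 12, beside 29 of all 123 genes with a ratio. Among the 6 at 1 FPKM or more 0 were 2-fold higher, against 23.8%. The NF-κB and adapter lists above also had 0 at that level. Of these 6 cytokines, 3 were higher and 3 lower, beside 61 and 23 of all 84 genes at that level, and the median was 0.04. The 12 genes of survival, death and the cell cycle at that level also had a median of 0.04. *Tnf*, the central inflammatory cytokine, had 8.65 FPKM in *N4bp1*+/+ against 10.8 FPKM in *N4bp1*-/- cells, a 1.2-fold difference. *Il1b* had 1.89 and 2.08 FPKM and *Il1a* 7.55 and 6.22 FPKM; both encode interleukin-1 ligands. *Il1rn*, which encodes their receptor antagonist and was the most abundant cytokine gene, had 66.3 and 49.0 FPKM, 1.35-fold lower in *N4bp1*-/- cells. *Il6*, the exception in the count, was at 0.126 and 0.331 FPKM (2.62-fold). *Ebi3*, a subunit of IL-27 and IL-35, was at 7.40 and 10.6 FPKM, and *Il15*, which sustains natural killer cells, at 6.69 and 6.40 FPKM. *Il10*, an anti-inflammatory cytokine, was at 0.127 and 0.0741 FPKM and *Il12a*, which encodes the p35 subunit of IL-12, at 0.0348 and 0.0196 FPKM. The p40 subunit, listed as *Il12p40*, was at 0.165 and 0.147 FPKM. *Il23a* was listed at 0 in *N4bp1*-/- but 0.0193 FPKM in *N4bp1*+/+ cells. Before any ligand, then, the cytokine transcripts were either below 1 FPKM in *N4bp1*+/+ cells or differed by less than 1.5-fold between the genotypes.

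**Figure D3:**
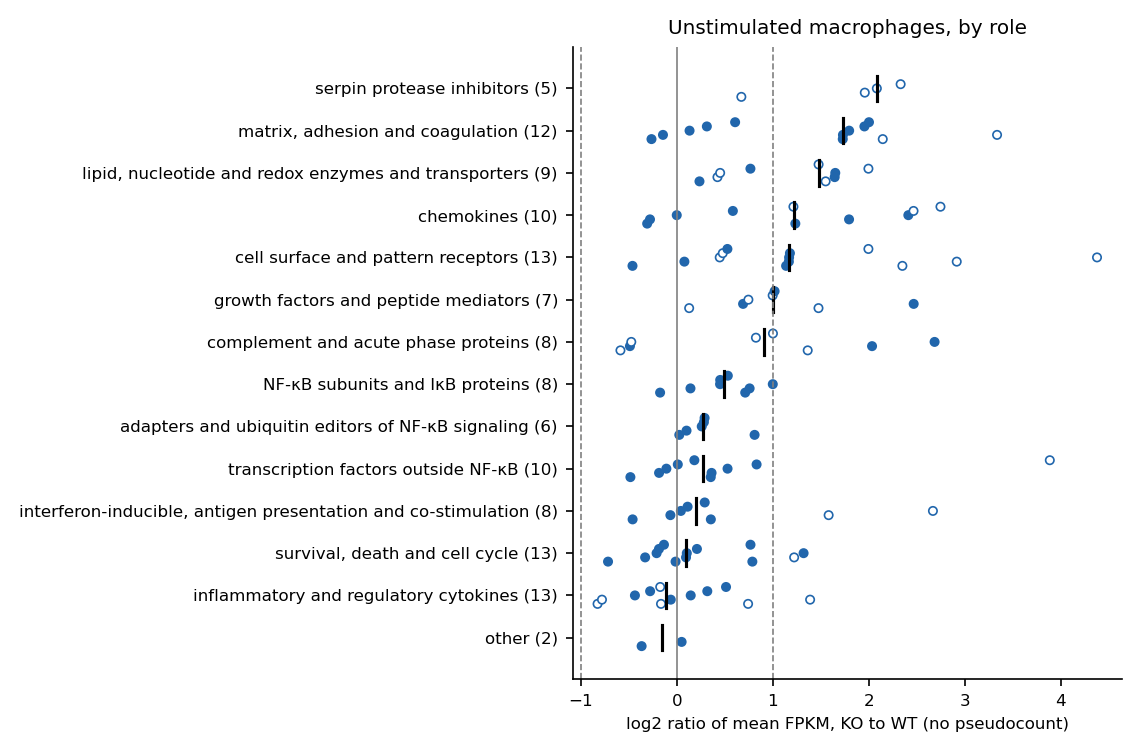
Log2 ratio of mean FPKM, KO to WT, without a pseudocount, for each reported gene in unstimulated macrophages, grouped by the role of its product; filled points are at 1 FPKM or more in WT, open points below, black bars are medians over the whole list and the number of genes is in brackets. NF-κB subunits and IκB proteins lie between -0.18 and 1.00 with a median of 0.49, matrix, adhesion and coagulation genes reach 3.34 with a median of 1.73, and cytokines have a median of -0.12.

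Genes of survival, death and the cell cycle were centred near equality, with a median log2 ratio of 0.09 over 13 members that lies below 0, at -0.04, relative to the shift. *Ier3*, an immediate early gene that restrains apoptosis, was the exception at 1 FPKM or more, with 4.85 and 12.1 FPKM (2.50-fold). *Gadd45b*, a stress-inducible regulator of MAP kinase signaling, had the lowest ratio of all genes at 1 FPKM or more, at 76.3 FPKM in *N4bp1*+/+ against 46.4 FPKM in *N4bp1*-/- cells (1.65-fold lower). *Pim1*, a survival kinase, had 40.5 and 32.2 FPKM. *Prkcd* (protein kinase Cδ) had 120 and 105 FPKM, and the pro-apoptotic *Bcl2l11* 25.1 and 22.9 FPKM. *Cflar*, which encodes the caspase-8 inhibitor c-FLIP, was at 24.9 and 26.6 FPKM. The *Bcl2a1* genes, near-identical copies that encode the pro-survival protein A1, differed among themselves: *Bcl2a1a* had 5.88 and 10.1 FPKM, *Bcl2a1d* 19.6 and 22.7 FPKM, and the locus that joins *Bcl2a1b* to *Gm29094* and *Mthfs* 154 and 133 FPKM. How reads were shared among these copies is uncertain.

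Of 10 transcription factors outside the family 1 was 2-fold higher, against 35.0% of all genes. Among the 9 at 1 FPKM or more 0 were, against 23.8% of all genes at that level. Of the 10, 4 lay within 1.2-fold of equality and the median log2 ratio was 0.27. *Spi1*, which encodes PU.1, the lineage factor of myeloid cells, had 167 and 154 FPKM. *Cebpd*, a factor of the acute phase response, was at 2.02 and 3.59 FPKM (1.78-fold), *Junb* at 74.3 and 84.2 FPKM and *Myc* at 4.57 and 5.84 FPKM. *Tfec*, a macrophage-restricted relative of MITF, had 6.84 and 4.89 FPKM, 1.40-fold lower in *N4bp1*-/- cells. *Sox9*, known from cartilage and epithelial progenitors, rested on a low level, 0.0713 and 1.06 FPKM. Of 8 interferon-inducible, antigen presentation and co-stimulation genes 2 were 2-fold higher, a share near the 35.0% of all genes, and both were antiviral *Mx* genes below 1 FPKM. *Mx1* was at 0.212 and 0.633 FPKM and *Mx2* at 0.0315 and 0.200 FPKM. *Irf1*, the transcription factor of early interferon responses, was at 15.2 and 19.4 FPKM, *Cd274* (PD-L1) at 37.0 and 40.0 FPKM and *Cd83*, a maturation marker, at 32.6 and 23.7 FPKM, 1.38-fold lower in *N4bp1*-/- cells. *Tnfaip2*, a TNF-induced gene outside these lists, had 147 and 114 FPKM.

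The highest ratios of the table belonged to genes that were barely detected in *N4bp1*+/+ cells. *Ccr7*, the receptor that guides dendritic cells to lymph nodes, had means of 0.0452 and 0.942 FPKM, a ratio of 20.8 that became a log2 ratio of 0.89 with a pseudocount of 1 FPKM. The log2 ratio of *Sox9* was likewise 3.89 without and 0.94 with that pseudocount. *Chil1*, a chitinase-like lectin, had means of 0.0249 and 0.252 FPKM. *Trem1*, an amplifying receptor of myeloid cells, had 0.0271 and 0.205 FPKM, and the interferon-γ-inducible chemokine *Cxcl9* 0.0577 and 0.388 FPKM. The chemokines *Ccl22* and *Ccl17*, both ligands of CCR4, were at 0.182 and 1.01 FPKM and at 0.0682 and 0.158 FPKM. *Vcam1*, an adhesion molecule for leukocyte integrins, had means of 0.476 and 2.11 FPKM, and *Cyp7b1*, an oxysterol hydroxylase, 0.427 and 1.70 FPKM. The cell cycle regulator *Ccnd2* (cyclin D2) was at 0.605 and 1.41 FPKM and *Upp1*, a uridine phosphorylase, at 0.211 and 0.589 FPKM. *Tnfrsf9* (4-1BB) had 0.0369 and 0.188 FPKM, *Il2ra*, the IL-2 receptor α chain, 0.0187 and 0.0746 FPKM, and *Csf3* (G-CSF) 0.0135 and 0.0375 FPKM. All these genes were below 1 FPKM in *N4bp1*+/+ cells. The number of reads is unknown, and a few reads may set the lowest of these means. Around the threshold itself, *Ptx3*, a pattern recognition protein, lay inside at 2.002-fold (0.0540 and 0.108 FPKM), and *Penk*, the precursor of enkephalins, outside at 1.998-fold (0.350 and 0.700 FPKM). *Pdgfb* and *Cd40* came next inside it, and *Nfkbie* and *Cebpd* were the other genes nearest to it from below.

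On the scale of FPKM differences a few abundant genes carried the higher total. The sum over all listed genes was 2316 FPKM in *N4bp1*+/+ against 2755 FPKM in *N4bp1*-/- cells. Differences added to 649.6 FPKM over the 94 genes with a higher mean in *N4bp1*-/- cells, and *Fn1* alone made 39.3% of that. *Fn1* was followed by *Thbs1*, at 37.3 FPKM above *N4bp1*+/+ cells, *C3* at 33.3 FPKM, *Tlr2* at 25.6 FPKM, the *C2* and *Cfb* locus at 20.9 FPKM and *Nfkbia* at 17.5 FPKM. The 30 genes with a lower mean, *Il23a* included, added to -211.3 FPKM. The largest of these were *Ptafr* at -39.8 FPKM, *Tnfaip2* at -33.2 FPKM and *Gadd45b* at -29.9 FPKM, all of which were abundant in both genotypes.

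Values after R848 and LPS show how far these differences were seen without stimulus and how far under a ligand. The 3 comparisons share no libraries, but the scaling between them is not stated, and titles of unstimulated and stimulated libraries carry different prefixes whose meaning the sources do not give, so a difference in handling cannot be told apart from the stimulus. After R848, 31 of 124 genes (25.0%) were 2-fold higher in *N4bp1*-/- cells and the median log2 ratio was 0.28. After LPS it was 20 of 124 (16.1%) with a median of -0.09. The unstimulated genes at 2-fold included 22 of those after R848, which is 51.2% of the 43 and 71.0% of the 31, and 17 of those after LPS, which is 39.5% of the 43 and 85.0% of the 20. Among the 20 unstimulated genes at 1 FPKM or more, 7 were also 2-fold higher after R848 and 8 after LPS. Over all 84 genes at 1 FPKM or more in unstimulated *N4bp1*+/+ cells, it was 9 after R848 and 9 after LPS. These 20 genes at 1 FPKM or more had a median log2 ratio of 1.73 unstimulated, 0.63 with R848 and 0.56 with LPS; as they were chosen for the first value, lower values under a ligand are not a finding.

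Some of these genes stayed past 2-fold under both ligands and others did not. The *C2* and *Cfb* locus was 6.44-fold higher without stimulus, 4.69-fold after R848 (15.1 and 70.9 FPKM) and 3.29-fold after LPS (40.9 and 134.7 FPKM). *Ptges* was 3.14-fold higher without stimulus, 4.10-fold after R848 (40.5 and 165.9 FPKM) and 4.37-fold after LPS (33.4 and 145.8 FPKM). *Csf1*, by contrast, went from 5.54-fold to 1.49-fold after R848 (18.1 and 27.0 FPKM) and 0.94-fold after LPS (56.5 and 53.1 FPKM). *Ccl2*, at 3.47-fold without stimulus, had 170 and 193 FPKM after R848 and 715 and 447 FPKM after LPS, where the higher mean was that of *N4bp1*+/+ cells. *Cav1* had the same pattern, with 151 and 160 FPKM after R848 and 280 and 182 FPKM after LPS. For the NF-κB subunits and IκB proteins the median log2 ratio was 0.49 unstimulated, 0.04 with R848 and -0.22 with LPS. For cytokines it was -0.12, 0.51 and -0.31, so that this list, near level before a ligand, had its highest median after R848.

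**Figure D4:**
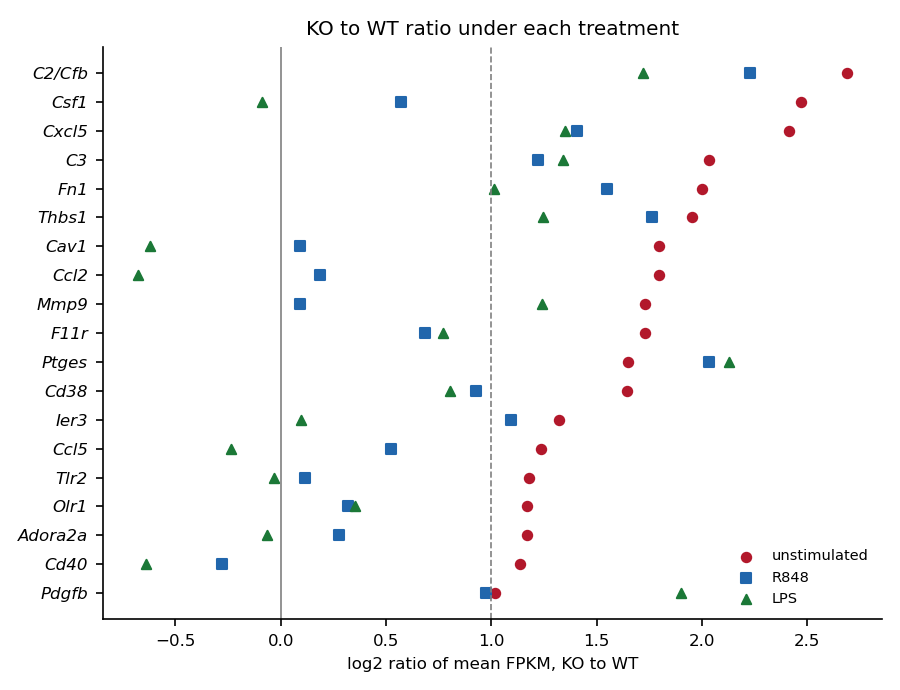
Log2 ratio of mean FPKM, KO to WT, without a pseudocount, for the 19 reported genes at 1 FPKM or more in unstimulated WT and at least 2-fold higher in unstimulated KO cells; red circles are unstimulated, blue squares after R848 and green triangles after LPS, each from 1 mean per genotype. *Ptges* stays past 2-fold under both ligands, and *Ccl2* and *Cav1* lie below 0 after LPS.

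The unstimulated knockout level was set beside that of stimulated *N4bp1*+/+ cells to show its size. In the median listed gene, *N4bp1*+/+ cells without stimulus stood at 11.2% of their own level after R848 and 7.57% of that after LPS, and unstimulated *N4bp1*-/- cells at 16.4% and 10.2%. For 10 of 124 genes the unstimulated *N4bp1*-/- mean was at or above the *N4bp1*+/+ mean after R848, and for 15 genes at or above that after LPS. For unstimulated *N4bp1*+/+ cells these counts were 0 and 1. Among the 84 genes at 1 FPKM or more in unstimulated *N4bp1*+/+ cells, the *N4bp1*-/- counts were 4 and 7. The rest were below 1 FPKM in those cells, where a few reads may set a mean. *Fn1*, at 339.8 FPKM without stimulus in *N4bp1*-/- cells, compared with 190.3 FPKM after R848 and 165.9 FPKM after LPS in *N4bp1*+/+ cells. *Thbs1* compared 50.2 FPKM with 46.8 and 50.7 FPKM, and *C3* 44.1 FPKM with 44.1 and 43.3 FPKM. Most others remained far from the stimulated level. *Tlr2* without stimulus in *N4bp1*-/- cells reached 12.0% of the *N4bp1*+/+ level after R848 and 8.4% of that after LPS, and *Nfkbia* 6.9% and 5.5%.

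**Figure D5:**
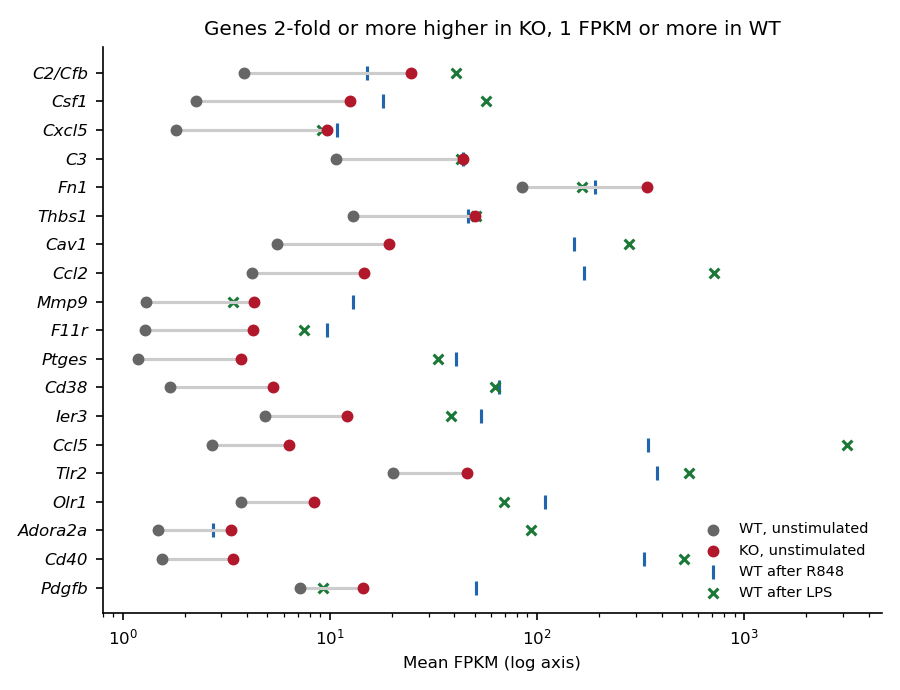
Mean FPKM (log axis) of the same 19 genes in unstimulated WT (grey circles) and unstimulated KO (red circles) macrophages, joined by a line, with the WT mean after R848 (blue ticks) and after LPS (green crosses). The red circle of *Fn1*, at 339.8 FPKM, lies beyond both stimulated WT values, and those of *Ccl5*, *Cd40* and *Tlr2* lie far below them.

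Promoter sequence is shown for the 3 genes at 1 FPKM or more and 2-fold or more, *Csf1*, *Tlr2* and *Ier3*, whose RefSeq promoter entry (GRCm38.p6) holds the canonical κB motif, the binding letters of NF-κB dimers, because the pathway's own motif can be read in them. Each run gives the 250 bases before the start site, 5′ to 3′ on the strand of the gene, with matches on either strand in capitals. *Csf1* lies at chr3:107760470-107760719 (minus strand), *Ier3* at chr17:35821463-35821712 (plus strand) and *Tlr2* at chr3:83841609-83841858 (minus strand).
Csf1: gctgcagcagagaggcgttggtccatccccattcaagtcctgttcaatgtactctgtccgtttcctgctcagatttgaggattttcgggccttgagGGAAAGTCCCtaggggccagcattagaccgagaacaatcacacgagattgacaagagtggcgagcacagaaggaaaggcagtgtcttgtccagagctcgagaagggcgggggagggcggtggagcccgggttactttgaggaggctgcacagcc
Ier3: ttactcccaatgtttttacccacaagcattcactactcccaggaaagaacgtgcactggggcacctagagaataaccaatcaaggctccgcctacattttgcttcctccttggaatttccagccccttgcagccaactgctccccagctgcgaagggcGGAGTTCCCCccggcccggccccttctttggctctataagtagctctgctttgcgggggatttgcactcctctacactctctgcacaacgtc
Tlr2: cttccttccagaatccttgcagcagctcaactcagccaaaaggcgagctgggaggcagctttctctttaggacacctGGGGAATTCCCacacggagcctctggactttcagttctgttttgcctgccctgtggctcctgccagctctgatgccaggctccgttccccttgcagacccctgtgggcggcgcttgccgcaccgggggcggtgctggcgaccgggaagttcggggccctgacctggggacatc
The match of *Csf1* began 154 bases before the start site and that of *Ier3* 92 bases before it. *Tlr2* held a pair of overlapping matches in 1 run of letters, from 173 and 172 bases before the start site, and a further match across the start site that is not in capitals. Of all 32851 windows in the table, each with 50 bases past the start site added, 8.46% held a match. A match was found in 3 of the 9 genes of this group with an entry and in 25 of the 81 listed genes with one; too many genes have no entry for either share to be read. A match describes letters and was not tested for binding.

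Markers of other cells could be followed only as far as the table holds them. Of the macrophage markers 1 of 7 was present, *Spi1*, whose values above are close in both genotypes. Of 9 stromal or mesothelial markers 4 were present, *Cav1*, *Vcam1*, *Cyp7b1* and *Sox9*. All 4 were 2-fold higher in *N4bp1*-/- cells, against 35.0% of all genes, and 2 with a pseudocount of 1 FPKM. *Vcam1*, *Cyp7b1* and *Sox9* were below 1 FPKM in *N4bp1*+/+ cells, where 59.0% of genes were 2-fold higher. The summed level of 6.56 and 24.3 FPKM was mostly that of *Cav1*, at 5.59 and 19.4 FPKM. The collagen genes, *Pdgfra*, *Msln* and *Upk3b* were not in the table. Of 7 dendritic cell markers 4 were present. *Ccr7*, *Ccl22* and *Ccl17*, all below 1 FPKM in *N4bp1*+/+ cells, were 2-fold higher, against 35.0% of all genes. With a pseudocount of 1 FPKM 0 of the 4 were. *Cd83* was lower. The summed level of 32.9 and 25.8 FPKM was mostly that of *Cd83*, at 32.6 and 23.7 FPKM. Of 8 neutrophil markers 3 were present, *Mmp9* and *Trem1* higher and *Lcn2* lower, with a summed level of 3.58 and 6.11 FPKM. For B and T cells 1 marker each was present, *Fcer2a* at 0.0395 and 0.0538 FPKM and *Il2ra*, both rare. *Cav1* and *Vcam1* are also members of the matrix and adhesion list, so the stromal markers and that list are not separate measurements. The part of other cells in the result was not tested. More cells of a type and more RNA per cell cannot be told apart in bulk samples.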

How the data were processed

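RNA was taken from cultured, thioglycollate-elicited peritoneal macrophages and libraries were made with a stranded mRNA kit. The authors aligned reads to mm10, assembled transcripts and compared genotypes with Cufflinks tools; TopHat2 2.0.10, Cufflinks 2.1.1 and CASAVA 1.8.2 are named in the submitters' processing notes. For the annotation and read filters, sources used here give nothing. FPKM values were deposited as 1 mean over both mice per genotype and treatment. The deposited tables also hold the authors' own fold changes, test scores, p-values and q-values, which were not used. With means only, depth is unknown and no interval, error or test was computed.

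Ratios and log2 ratios of means were computed with Python 3.11.15, numpy 2.4.6 and pandas 2.3.3, without a pseudocount or with 1 FPKM added, and drawn with matplotlib 3.10.9. The code was tested on simulated data. Deposited starts count from 0 and 1 was added. By name, 118 rows match a GENCODE M21 gene, all on the same chromosome, and 79 of them have the same start. The 4 joined rows hold 1 value for several genes, and *Bcl2a1a* and *Bcl2a1d* have separate values but the same locus.

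The genes named are all those at 2-fold or more, the 10 lowest ratios at 1 FPKM or more, the 3 nearest 2-fold on each side, the 8 most abundant, *Tnf*, *Il6*, *Il1b*, *Il10*, *Il12p40* and *Ccl5*, all NF-κB and IκB genes and up to 6 further genes per role list. The 14 role lists, the markers and the members were chosen with earlier results of these data known. The values of 1 listed gene are left out of the text; that gene is kept in counts, medians and sums over all genes, but not in the marker lists. The alternatives were other pseudocounts, fold thresholds, a filter on low values, leaving out joined rows, and another scaling.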

Additional observations from a re-analysis of the deposited data

How the results depend on the processing

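No paired analysis was possible because the files hold 1 mean per genotype and the labels give no replicate numbers, and no replicate could be left out in turn. As no spread between mice is known, a median is taken as moved when it shifts by more than 0.1 on the log2 scale, a tolerance set for this purpose. The count of genes 2-fold higher, 43, was 16 with a pseudocount of 1 FPKM, 27 among genes at 1 FPKM or more in either genotype and 27 at a 3-fold threshold. The count of genes lower, 0, was 4 at a 1.5-fold threshold. The median log2 ratio over all genes, 0.53, was 0.42 and 0.23 with pseudocounts of 0.1 and 1 FPKM, 0.35 with the filter at 1 FPKM in either genotype and 0.39 relative to the 41 most abundant genes, whose own median was 0.13. For genes at 1 FPKM or more in *N4bp1*+/+ cells the median of 0.30 was 0.17 under that scaling. For genes below, the median of 1.36 was 0.66 and 0.20 with pseudocounts of 0.1 and 1 FPKM, 2.15 with the filter, 1.23 under the scaling and 1.21 when genes were split at the mean over both genotypes, an alternative chosen after seeing the data. The pseudocount and the filter act on rare genes by construction. A gene below 1 FPKM in *N4bp1*+/+ cells passed the filter only through a higher mean in *N4bp1*-/- cells. The count of 27 and the medians of 0.35 and 2.15 under the filter are partly set by this and lend no support. No alternative reversed a direction of these medians; the other 17 values of counts and medians by level stayed within 1.5 times or 0.1. With a pseudocount of 1 FPKM, 7 of 14 role-list medians moved, among them those of receptors, chemokines and complement.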
